A study of Mus musculus with 4 samples.

Results

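Subunits of potassium, sodium and calcium channels were compared between day 7 and day 4 in retinal aggregates that mouse embryonic stem cells form in culture. Members were all genes on the array whose symbols have the potassium channel form (Kcn, letters and a number), the sodium channel form (Scn, a number and a or b) or the calcium channel form (Cacna, Cacnb or Cacng and a number). This gave 122 of the 22180 genes measured, of which 86 belong to potassium, 11 to sodium and 25 to calcium channels. The 122 members had 132 probe sets naming 1 gene, and 10 members had more than 1. Each gene was read from its brightest probe set (highest mean of the 4 arrays).

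There were 4 arrays, 2 from day 4 and 2 from day 7. Both groups were wild-type aggregates cultured in retinal differentiation medium with matrigel, from a line derived from EB5 (129/Ola) that carries GFP knocked in under the promoter of Rx, also called Rax, an eye field gene. The 2 days differ only in time in culture, and the knock-in is shared by all arrays. The labels do not say whether replicates were separate cultures, so the spread behind the p-values may be technical only. An aggregate is a mixture of cells, and in such bulk RNA fewer cells of a type and less RNA per cell cannot be told apart.

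Voltage-gated channels are built from a pore-forming subunit, which holds the voltage sensor and the ion filter, and accessory subunits that set its amount at the membrane and its kinetics. Potassium channels set the resting potential and end the action potential, sodium channels carry its upstroke, and calcium channels turn depolarisation into calcium entry. Inward rectifier and tandem-pore potassium channels have no voltage sensor and set the resting potential of excitable and other cells. Stem cells and neural progenitors do not fire trains of action potentials, but they express many of these genes before neurons form.

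The deposited values are log2 signals, so a difference of 1 is a 2-fold difference in normalized signal. Array medians lay between 5.68 and 5.77. Of 6 pluripotency markers 4 fell, with a list mean of 10.12 to 10.35 per array at day 4 and 8.21 to 8.41 at day 7. The largest of these falls was that of Fgf5 (log2 difference -4.71). Nanog (log2 difference -0.56, limma adjusted p = 0.0531) and Zfp42 (log2 difference -0.07, limma adjusted p = 0.864) were not called. Of 6 eye field markers measured 3 rose, with a list mean of 7.11 to 7.74 at day 4 and 8.75 to 9.42 at day 7. Neuron markers moved less evenly. Of 9, 2 rose, among them the doublecortin gene Dcx (log2 difference 1.69), and 1 fell, Stmn2 (log2 difference -0.97, limma adjusted p = 0.0092, and 0.0946 without day 7 replicate 1). The mean of the neuron list was 7.05 to 7.10 at day 4 and 7.40 to 7.48 at day 7. Smooth muscle and mesenchyme markers rose in 2 of 6 cases (list mean 6.03 to 6.54, then 7.49 to 7.53) and glial markers in 1 of 5 (5.15 to 5.35, then 5.66 to 5.67). The glial marker that rose was Sox10 (log2 difference 1.92). The other 4 were not called, with differences from -0.07 to 0.19, so the glial list mean moved mostly with 1 gene. The endothelial list mean went from 6.12 to 6.20 at day 4 to 6.32 to 6.81 at day 7 and the endodermal one from 7.61 to 7.68 to 7.47 to 7.98, each with 1 gene higher. The means of the 7 cardiac and skeletal muscle markers were 5.84 to 6.06 and 5.67 to 5.72, with all 7 not called by limma (2 at an unadjusted p under 0.05). Array signals have no true zero, so the absence of a cell type cannot be read from them. The part of these markers in the channel results was not tested.

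A gene was called when the limma adjusted p over all genes was under 0.05. Of the 122 channel members 19 were called (15.6%), against 10.5% of all genes. At day 7, 6 members were higher (4.92%, against 6.15% of all genes) and 13 were lower (10.7%, against 4.33%). Of the 86 potassium channel members 4 were higher (4.65%) and 9 lower (10.5%). At least 2-fold differences were called for 9 members, 2 higher and 7 lower (7.38%, against 5.23% of all genes). The median difference of the 122 members was -0.03, and that of all genes was -0.00. The days did not overlap for 51 members (41.8%), a smaller share than the 50.8% of all genes. With each array set to the same median, 10 members were higher and 13 lower, so that 43.5% of the calls were rises in place of 31.6%. Rises grew among all genes too, to 63.4% of the called genes in place of 58.7%, with 12.2% of all genes called. The median difference of all genes was then 0.04. Without day 7 replicate 1, and likewise without day 7 replicate 2, 2 members were higher and 6 lower, while the share called among all genes fell to 4.00% and 4.48%.

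**Figure D1:**
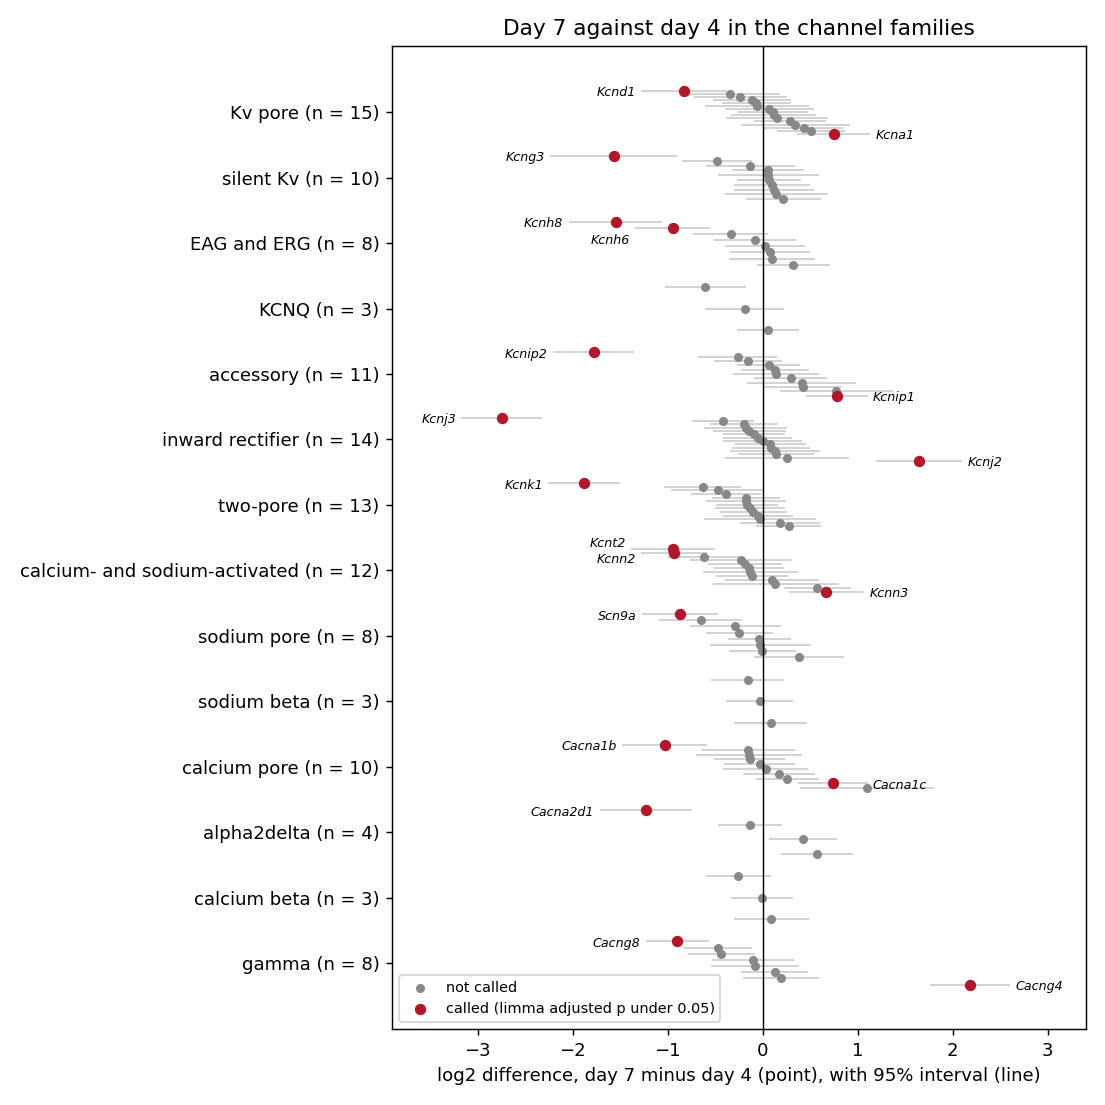
Log2 difference of each of the 122 channel genes, day 7 minus day 4 (x axis), with its 95% interval from limma, by family (y axis, with the number of genes). Red points are the 19 called genes, and most grey points lie within 0.5 log2 of zero. The far points are Kcnj3 at -2.74 and Kcng3, Kcnip2 and Kcnk1 on the low side, and Cacng4 at 2.18 and Kcnj2 at 1.65 on the high side.

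Of the 14 families 11 had at least 1 call, and each family had at most 3. Against 10.5% of all genes, the share called was 25% in the EAG and ERG, the calcium- and sodium-activated, the alpha2delta and the gamma families, and 7.69% in the tandem-pore family. The families hold 3 to 15 genes, so 1 call moves such a share far. A log2 difference under 0.5 in size was found for 94 of the 122 members, a smaller share than the 18554 of all 22180 genes. Of the 103 members that were not called, 98 had a 95% interval that lay within 1 log2 of zero, so a change of more than 2-fold lay outside the interval for these. With called genes counted too, such an interval was found for 98 of 122 members, again a smaller share than the 19228 of all 22180 genes. The 5 uncalled members whose interval reached further were Cacna1g, Kcnab2, Kcnk6, Kcnq3 and Scn1a. A p above the threshold does not show that a gene was the same on both days.

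**Figure D2:**
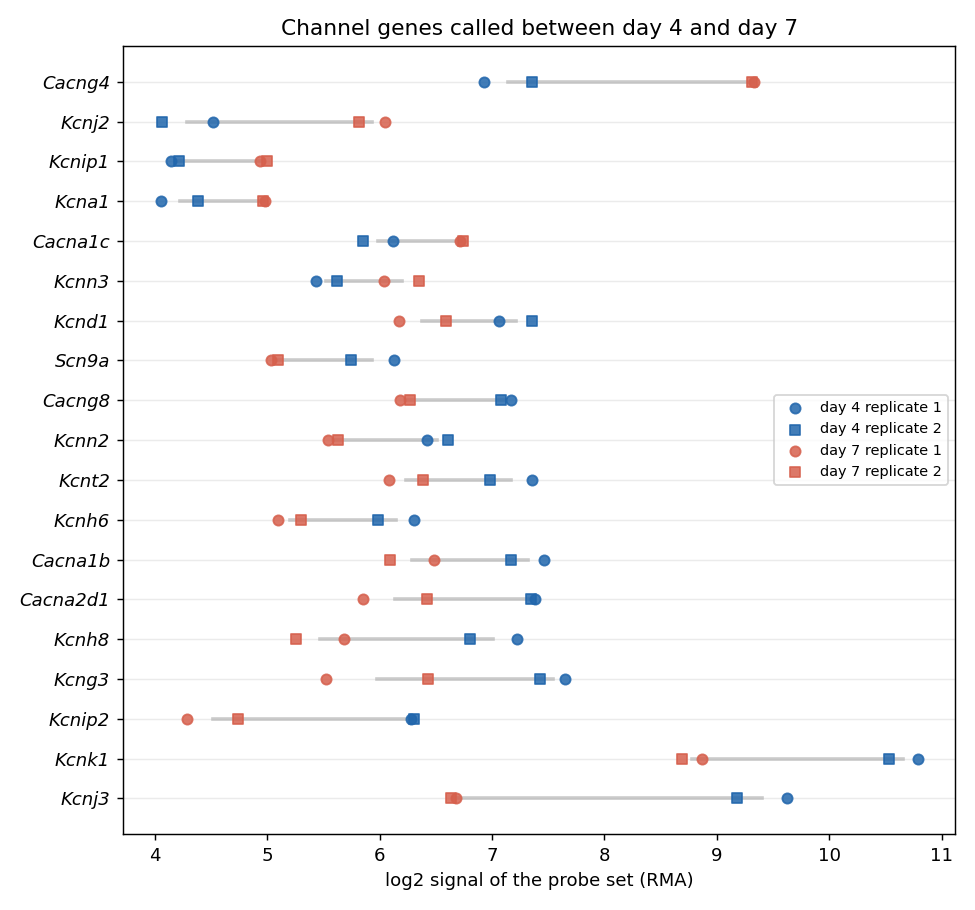
Log2 signal (x axis) of the 19 called channel genes (y axis) on each of the 4 arrays. Blue marks are day 4 and red marks day 7, circles replicate 1 and squares replicate 2, and the grey bar joins the means of the days. The days do not overlap for any of the 19, and the widest gap between replicates is that of Kcng3 at day 7 (5.52 and 6.43).

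Inward rectifiers pass potassium more easily into the cell than out of it, and of 14 measured 1 fell, 1 rose and 12 were not called. With each gene read from its brightest probe set, the largest change of any member was the fall of Kcnj3, which encodes a subunit of the G protein-gated channels opened by inhibitory transmitters. Kcnj3 (probe set 17370883) read 9.62 and 9.18 at day 4 and 6.68 and 6.63 at day 7. Both day 7 arrays were more than 2 log2 units below the lower day 4 array. The fall was 6.70-fold (log2 difference -2.74, SE 0.18, limma adjusted p = 0.000282). A second Kcnj3 probe set (17385371), of lower signal, also read lower at day 7, by a smaller step (5.84 and 5.89, then 4.53 and 5.05, a difference of -1.07). With the mean of both probe sets the fall was 3.75-fold, smaller than the rise of Cacng4 described below. Kcnj5, whose product joins that of Kcnj3 in one such channel, read 5.17 and 5.15 at day 4 and 4.70 and 4.78 at day 7 (log2 difference -0.42, 95% interval -0.74 to -0.09, limma adjusted p = 0.116). For Kcnj6 and Kcnj9, also genes of G protein-gated subunits, the days overlapped. Their log2 differences were -0.14 (limma adjusted p = 0.708) and 0.09 (limma adjusted p = 0.84).

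Kcnj2, which encodes the classical strong inward rectifier that holds the resting potential, moved the other way. Kcnj2 (probe set 17257937) read 4.51 and 4.06 at day 4 and 6.05 and 5.82 at day 7. Its day 4 values were among the dim signals of the array, below the 25th percentile of gene means (4.60), and both day 7 values were above it. The rise was 3.13-fold (log2 difference 1.65, SE 0.19, limma adjusted p = 0.00248). Background left in a dim signal makes a fold smaller. The same holds for Kcnip1, Kcna1 and Kcnip2 below, the other called members with a day mean under 4.60.

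The promoters of the 2 called inward rectifier genes, and of the 2 called genes that hold CAGCACC, are shown to set these genes beside the sites of a known regulator. They are RefSeq sequences of assembly GRCm38.p6, the 250 bases before each gene's start, 5′ to 3′ on the gene's strand. Capitals mark CAGCACC or GGACAGC on either strand, the cores of the left and right parts of the element bound by REST, a repressor that holds back many neuronal genes, channel genes among them, outside neurons.
Kcnj3 (chr2:55435720-55435969, plus strand): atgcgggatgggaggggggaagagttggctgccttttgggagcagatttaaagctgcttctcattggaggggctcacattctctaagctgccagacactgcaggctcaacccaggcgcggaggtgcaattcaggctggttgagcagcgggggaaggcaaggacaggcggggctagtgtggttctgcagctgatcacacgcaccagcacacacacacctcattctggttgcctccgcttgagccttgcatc
Kcnj2 (chr11:111065914-111066163, plus strand): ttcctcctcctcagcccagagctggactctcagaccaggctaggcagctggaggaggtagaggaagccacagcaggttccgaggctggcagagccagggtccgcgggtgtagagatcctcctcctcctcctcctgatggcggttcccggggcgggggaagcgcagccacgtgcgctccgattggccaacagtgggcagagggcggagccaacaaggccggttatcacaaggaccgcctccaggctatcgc
Kcnh6 (chr11:106007898-106008147, plus strand): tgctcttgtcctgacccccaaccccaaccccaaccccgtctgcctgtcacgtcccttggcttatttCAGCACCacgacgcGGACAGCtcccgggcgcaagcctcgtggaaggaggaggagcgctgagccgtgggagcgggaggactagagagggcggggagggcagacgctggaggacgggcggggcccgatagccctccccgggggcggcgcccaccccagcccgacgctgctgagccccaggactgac
Kcnt2 (chr1:140245468-140245717, plus strand): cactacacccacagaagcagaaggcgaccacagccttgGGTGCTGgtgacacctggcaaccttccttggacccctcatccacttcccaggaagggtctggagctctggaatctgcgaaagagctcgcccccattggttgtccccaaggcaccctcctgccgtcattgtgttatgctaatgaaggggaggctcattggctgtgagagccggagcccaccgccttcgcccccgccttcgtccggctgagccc
The Kcnh6 window held both runs of letters, CAGCACC at position -184 and GGACAGC at -170 from the start, with 7 bases between them. In the Kcnt2 window CAGCACC lay on the opposite strand, at -212. A window of Kcnk1, not printed, held GGACAGC. No capitals appear in the Kcnj3 and Kcnj2 windows, which says only that these letters are not there.

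Of the 122 members 94 had an entry, with 129 windows in all, and 15 of the 19 called members were among them. CAGCACC was in 5.43% of the members' windows and in 5.73% of all 32851 windows, and GGACAGC in 7.75% and 5.28%. Both were held by 1 member window, that of Kcnh6, and by 0.393% of all windows. CAGCACC followed after 2 bases by GGACAG, searched on both strands and overlapping both shorter runs, was in 11 of all windows and in 0 of the members' windows. TATAAA, also on either strand, was in 3.10% of the members' windows against 12.4% of all windows. The median number of CG pairs was 8 in the members' windows and 6 in all windows, 15 for members that fell (11 windows) and 8 for members that rose (8 windows, of 4 genes). A match is a description and no evidence of binding. The REST gene itself, Rest, read 8.39 and 8.28 at day 4 and 8.02 and 8.16 at day 7 (log2 difference -0.24, limma adjusted p = 0.396).

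Tandem-pore channels carry the background leak of potassium. Of 13 measured, 1 fell and 12 were not called, and 11 of the 13 differences were negative, with a median of -0.16. Among all 22180 genes 11247 differences were negative. The signs were not tested. Kcnk1, a weakly conducting leak channel gene, read 10.79 and 10.53 at day 4 and 8.87 and 8.69 at day 7. The days were clearly apart, and the fall was 3.68-fold (log2 difference -1.88, SE 0.16, limma adjusted p = 0.000743). Kcnk6 read 7.72 and 7.44, then 6.81 and 7.08, and was not called (log2 difference -0.63, limma adjusted p = 0.0637, and 0.0403 without day 4 replicate 2, 0.0331 after quantile normalization, 0.0303 above the median level and 0.0454 with an intensity trend). Kcnk5, an acid-sensitive leak channel gene, had a log2 difference of -0.47 (95% interval -0.96 to 0.02, limma adjusted p = 0.236).

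Of 15 pore subunit genes of voltage-gated potassium channels measured in the Kcna to Kcnd groups, 1 rose, 1 fell and 13 were not called. The share called was 13.3%, near the 10.5% of all genes. Kcna1, a low-threshold channel gene of axons, read 4.05 and 4.39 at day 4 and 4.98 and 4.96 at day 7. It rose 1.68-fold (log2 difference 0.75, SE 0.16, limma adjusted p = 0.0287). Kcnd1, a gene of the fast-inactivating A-type current, read 7.07 and 7.35 at day 4 and 6.18 and 6.59 at day 7. The fall was 1.78-fold (log2 difference -0.83, SE 0.19, limma adjusted p = 0.0361). Kcnb2, a delayed rectifier gene, stood at 4.34 ± 0.18 and 4.85 ± 0.01 (SD, n = 2 per day, limma adjusted p = 0.0845). Kcna4 had a replicate gap at day 4 (8.66 and 7.92) that was wider than its day 4 to day 7 difference of 0.34, and Kcnc2 read 4.13 and 3.48 at day 4 and 3.49 and 3.45 at day 7 (limma adjusted p = 0.453). Several of these crossed the threshold when 1 array was left out. The log2 difference of Kcna1 was then 0.74 or 0.76 without day 7 replicate 1 or 2, close to that of all 4 arrays, and that of Kcnd1 was -0.62 or -1.03. In the same 2 fits the adjusted p was 0.175 or 0.158 for Kcna1 and 0.241 or 0.062 for Kcnd1. It was 0.0843 for Kcna1 without day 4 replicate 1 and 0.0904 for Kcnd1 without day 4 replicate 2. Kcna4 had 0.0495 without day 4 replicate 1 and Kcnc2 0.0468 without day 4 replicate 2.

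Silent subunits form no channel alone and modify delayed rectifiers. Of 10, 1 fell and 9 were not called. Kcng3 read 7.65 and 7.43 at day 4 and 5.52 and 6.43 at day 7. The day 7 arrays were 0.91 apart, and both were below day 4. The fall was 2.96-fold (log2 difference -1.57, SE 0.28, limma adjusted p = 0.0148). The other silent members had differences between -0.48 and 0.22.

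The EAG and ERG group includes channels that shape firing and repolarise the heart. Of 8, 2 fell and 6 were not called. Kcnh8, of the ELK branch, read 7.22 and 6.80 at day 4 and 5.68 and 5.25 at day 7. It fell 2.92-fold (log2 difference -1.55, SE 0.21, limma adjusted p = 0.00456). Kcnh6, of the ERG branch, read 6.30 and 5.99, then 5.10 and 5.30. Its fall was 1.93-fold (log2 difference -0.95, SE 0.17, limma adjusted p = 0.0136), with an adjusted p of 0.123 when day 7 replicate 1 was left out and 0.0631 when replicate 2 was. Of the 3 KCNQ members, genes of the muscarine-sensitive and related currents, limma called 0, with 1 at an unadjusted p under 0.05. That gene, Kcnq3, stood at 5.82 ± 0.01 and 5.22 ± 0.31 (SD, n = 2 per day, log2 difference -0.60, 95% interval -1.02 to -0.18, limma adjusted p = 0.0856).

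Accessory subunits of voltage-gated potassium channels include the Kcnip calcium sensors, which bind A-type channels and raise their surface amount. Of 11 accessory members 1 rose, 1 fell and 9 were not called. Kcnip2 read 6.28 and 6.31 at day 4 and 4.29 and 4.74 at day 7. It fell 3.43-fold (log2 difference -1.78, SE 0.18, limma adjusted p = 0.00147). Kcnip1 read 4.15 and 4.22 at day 4 and 4.93 and 4.99 at day 7. Its replicates lay close together, and the rise was 1.72-fold (log2 difference 0.78, SE 0.14, limma adjusted p = 0.0132). The related Kcnip3 stood at 8.67 ± 0.23 and 8.41 ± 0.18 (SD, n = 2 per day, limma adjusted p = 0.474). The beta subunit gene Kcnab2 read 5.82 and 6.58, then 7.11 and 6.85 (log2 difference 0.78, 95% interval 0.18 to 1.37, limma adjusted p = 0.112, and 0.00796 without day 4 replicate 2 and 0.0477 with equal array medians). For Kcnip1 the adjusted p was 0.0974 when day 7 replicate 1 was left out and 0.111 when replicate 2 was. Kcne3, of another accessory group, was called only without day 4 replicate 2 (limma adjusted p = 0.0333).

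Channels opened by intracellular calcium or sodium link excitation to potassium outflow. This family was set by symbol (Kcnma, Kcnmb, Kcnn, Kcnt and Kcnu). It takes in the accessory Kcnmb subunits, so not every member is itself a channel opened by calcium or sodium. Among its 12 genes there were 1 rise and 2 falls, and 9 genes were not called. The small-conductance genes moved in opposite directions. Kcnn2 read 6.42 and 6.61 at day 4 and 5.54 and 5.63 at day 7, a 1.90-fold fall (log2 difference -0.93, SE 0.15, limma adjusted p = 0.00847). Kcnn3 read 5.43 and 5.62 at day 4 and 6.04 and 6.35 at day 7, a 1.59-fold rise (log2 difference 0.67, SE 0.17, limma adjusted p = 0.0477). Each gene's days were apart. Kcnn1 read 6.65 and 6.76, then 7.18 and 7.38, and was not called (log2 difference 0.58, limma adjusted p = 0.0531, and 0.0394 with a replicate block, 0.0291 with equal array medians, 0.0414 above the 25th percentile of level and 0.0221 above the median). The sodium-activated gene Kcnt2 read 7.36 and 6.99 at day 4 and 6.08 and 6.39 at day 7. It fell 1.92-fold (log2 difference -0.94, SE 0.19, limma adjusted p = 0.0211). Kcnma1, the pore gene of the large-conductance channel, stood at 5.85 ± 0.21 and 5.23 ± 0.06 (SD, n = 2 per day, log2 difference -0.62, limma adjusted p = 0.0534, and 0.0426 above the 25th percentile of level and 0.0281 without day 4 replicate 2). A second Kcnma1 probe set (17548705) had a difference of -0.12. Calls here changed with single arrays. Without day 7 replicate 1 or 2 the adjusted p was 0.0865 or 0.0621 for Kcnn2, 0.104 or 0.299 for Kcnn3 and 0.166 or 0.0637 for Kcnt2. Without day 4 replicate 1 it was 0.133 for Kcnn3 and 0.0594 for Kcnt2, and with an intensity trend it was 0.0512 for Kcnn3.

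**Figure D3:**
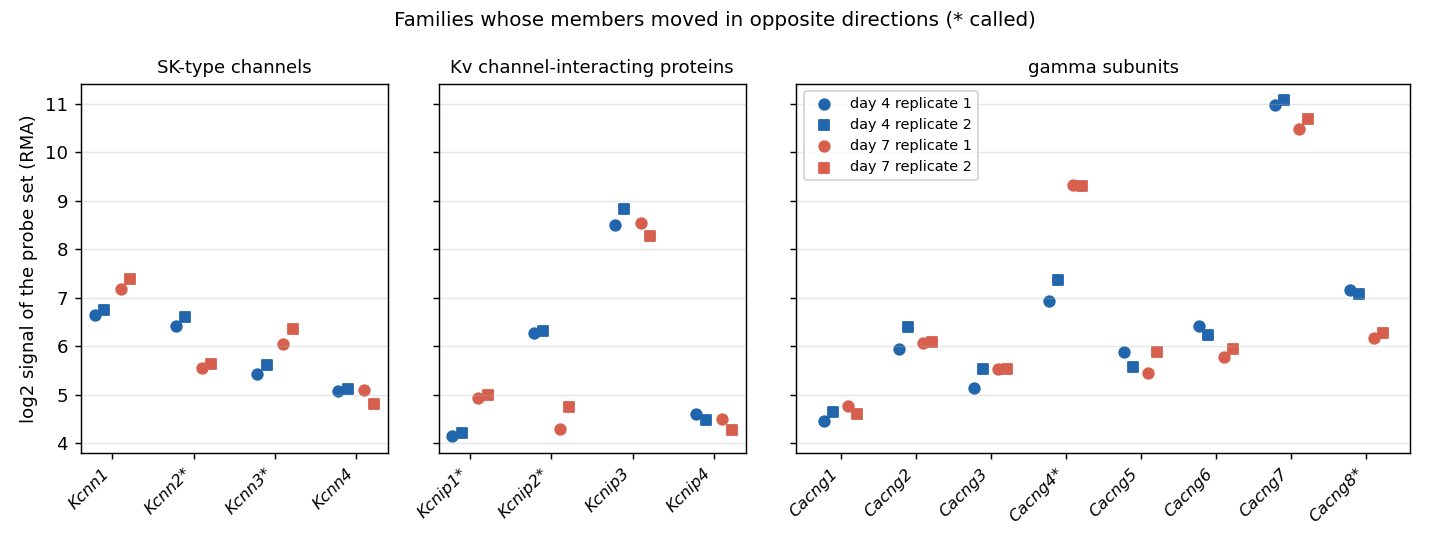
Log2 signal (y axis) of the members of 3 families, the Kcnn channels, the Kv channel-interacting proteins (Kcnip) and the gamma subunits (Cacng), on each array. Blue is day 4, red day 7, circles replicate 1, squares replicate 2, and a star marks a called gene. In each family 1 gene was called higher and 1 lower, with Kcnn3, Kcnip1 and Cacng4 higher and Kcnn2, Kcnip2 and Cacng8 lower at day 7.

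Among 11 sodium channel members 1 fell (9.09%, against 4.33% of all genes) and 10 were not called. The fall was that of Scn9a, a pore gene best known from sensory neurons, which read 6.12 and 5.74 at day 4 and 5.03 and 5.10 at day 7. It was 1.83-fold (log2 difference -0.87, SE 0.17, limma adjusted p = 0.0196), and the adjusted p was 0.0518 without day 4 replicate 1 and 0.144 or 0.11 without the first or the second day 7 array. Scn1a, a pore gene of inhibitory neurons, read 4.35 and 3.95, then 3.62 and 3.37. It was not called (log2 difference -0.65, limma adjusted p = 0.0748, and 0.0264 without day 4 replicate 2, 0.0289 with a replicate block and 0.0464 with an intensity trend). Scn8a, whose product gathers at axon initial segments and nodes, stood at 6.76 ± 0.12 and 6.52 ± 0.12 (SD, n = 2 per day, limma adjusted p = 0.41). The beta subunit gene Scn3b stood at 5.96 ± 0.24 and 6.05 ± 0.02 (SD, n = 2 per day, limma adjusted p = 0.843). Of the 11 members 9 had a negative difference, with a median of -0.03, and 6 had both day means under 4.60, among the dim signals. Over all 22180 genes, 11247 had a negative difference and 5241 had both day means under 4.60.

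Among 25 calcium channel members 2 rose (8%, against 6.15% of all genes), 3 fell (12%, against 4.33%) and 20 were not called. Of 10 pore genes 1 rose and 1 fell. Cacna1b, the pore of the N-type channel that triggers transmitter release, read 7.46 and 7.17 at day 4 and 6.49 and 6.09 at day 7. It fell 2.04-fold (log2 difference -1.03, SE 0.19, limma adjusted p = 0.0155). Cacna1c, an L-type pore gene, read 6.12 and 5.85 at day 4 and 6.72 and 6.74 at day 7. The rise was 1.67-fold (log2 difference 0.74, SE 0.15, limma adjusted p = 0.0246). Cacna1g, a T-type pore gene that opens at low voltage, read 6.12 and 7.09 at day 4 and 7.82 and 7.60 at day 7. Its day 4 replicates were 0.97 apart, the widest replicate gap of any member, and it was not called (log2 difference 1.10, 95% interval 0.40 to 1.81, limma adjusted p = 0.0637). That p was 0.00179 without day 4 replicate 2, 0.0178 with equal array medians, 0.0378 above the median level and 0.0257 with an intensity trend. The adjusted p of Cacna1b was 0.115 without day 7 replicate 2. For Cacna1c it was 0.0635 without day 4 replicate 2 and 0.152 or 0.155 without the first or the second day 7 array.

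The alpha2delta subunits lie outside the membrane and carry pore subunits to the surface. Of 4 members 1 fell and 3 were not called. Cacna2d1 read 7.38 and 7.35 at day 4 and 5.85 and 6.43 at day 7, and fell 2.35-fold (log2 difference -1.23, SE 0.20, limma adjusted p = 0.0104, and 0.0633 without day 7 replicate 1). Cacna2d2 read 5.99 and 6.23, then 6.80 and 6.57 (log2 difference 0.57, limma adjusted p = 0.0719, and 0.0456 with equal array medians and 0.0332 above the median level). Cacna2d3 had a log2 difference of 0.42 (95% interval 0.07 to 0.78, limma adjusted p = 0.141). Of the 3 beta subunit genes, whose products bind the pore from inside, limma called 0, with 0 at an unadjusted p under 0.05. Cacnb2 stood at 7.54 ± 0.06 and 7.53 ± 0.05 (SD, n = 2 per day), with a 95% interval of the difference from -0.34 to 0.32.

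Several gamma subunits act less on calcium channels than on AMPA-type glutamate receptors, which they carry to the synapse. Of 8 members 1 rose, 1 fell and 6 were not called. Cacng4, one of these receptor partners, read 6.92 and 7.36 at day 4 and 9.33 and 9.31 at day 7. Both day 7 arrays were nearly 2 log2 units or more above each day 4 array. Its rise of 4.53-fold was the largest of any member (log2 difference 2.18, SE 0.18, limma adjusted p = 0.00066). Cacng8, another receptor partner, read 7.17 and 7.08 at day 4 and 6.18 and 6.27 at day 7. The fall was 1.86-fold (log2 difference -0.90, SE 0.14, limma adjusted p = 0.00815), and leaving out day 7 replicate 1 or 2 gave an adjusted p of 0.0873 or 0.0601. Cacng7 read 10.97 and 11.07, then 10.47 and 10.69 (log2 difference -0.44, limma adjusted p = 0.13, and 0.0212 with an intensity trend). Cacng6 read 6.42 and 6.24, then 5.77 and 5.95 (log2 difference -0.47, limma adjusted p = 0.111), and Cacng1 stood at 4.56 ± 0.13 and 4.69 ± 0.11 (SD, n = 2 per day).

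Some channel genes lie beside another channel gene, in many cases one of the same family. In the RefSeq gene order 33 of the 122 members formed 14 runs with no other protein-coding gene between them. Of the 14 runs 6 held a called gene, each of them 1. The 33 members in runs thus held 6 of the 19 calls, where 15.6% of all members and 10.5% of all genes were called. Whether calls were more frequent in runs was not tested. Kcnj2 rose beside Kcnj16, which had a log2 difference of 0.00 (95% interval -0.41 to 0.41). Cacng4 rose between Cacng1 and Cacng5, with differences of 0.13 and -0.08. In the run of Cacng6, Cacng7 and Cacng8 the days were apart for all 3, with differences of -0.47, -0.44 and -0.90. In the run of Scn1a, Scn9a and Scn7a the differences were -0.65, -0.87 and -0.29, and the days overlapped for Scn7a. Whether neighbours differed from each other in their change was not tested.

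Partners of these channels were examined beside them, in a list of 37 measured genes. Of these 3 rose (8.11%, against 6.15% of all genes), 6 fell (16.2%, against 4.33%) and 28 were not called, with a median difference of -0.00. The genes of both helper proteins of the sodium leak channel were lower at day 7. Unc79 read 6.16 and 5.69, then 4.87 and 4.90 (2.05-fold, limma adjusted p = 0.0139), and Unc80 read 6.43 and 6.35, then 5.35 and 5.44 (1.99-fold, limma adjusted p = 0.00538). The channel's pore gene Nalcn had a log2 difference of -0.50 and was not called (limma adjusted p = 0.0816). Dpp6, whose product joins A-type potassium channels, fell 1.86-fold (6.48 and 6.65, then 5.71 and 5.63, limma adjusted p = 0.0092). The fibroblast growth factor homologous factors, which bind sodium channels inside the cell, split evenly. Fgf13 rose 2.41-fold (6.91 and 6.93, then 8.05 and 8.33, limma adjusted p = 0.00286) and Fgf12 rose 1.68-fold (limma adjusted p = 0.0181). Fgf11 fell 1.75-fold (limma adjusted p = 0.0114) and Fgf14 1.70-fold (limma adjusted p = 0.0274). The others were Rem2, an inhibitor of calcium channels, which rose 1.58-fold (limma adjusted p = 0.0475), and Hcn3, a pacemaker channel gene, which fell 1.68-fold (limma adjusted p = 0.0171). Fgf13 kept its call without each array in turn. Without day 7 replicate 1 the adjusted p was 0.105 for Unc79, 0.0646 for Unc80, 0.073 for Dpp6, 0.0948 for Fgf12, 0.0992 for Fgf11, 0.152 for Fgf14, 0.275 for Rem2 and 0.122 for Hcn3. Without day 7 replicate 2 it was 0.0899 for Unc79, 0.0853 for Dpp6, 0.15 for Fgf12, 0.0943 for Fgf11, 0.169 for Fgf14 and Rem2 and 0.128 for Hcn3. Without day 4 replicate 1 that of Fgf14 was 0.0794, and without day 4 replicate 2 that of Rem2 was 0.121.

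Of 34 other cation channel and calcium store genes 2 rose and 5 fell, so that 20.6% were called, against 10.5% of all genes. Trpm3, a heat- and steroid-sensitive channel gene of pigment epithelium and other tissues, read 4.79 and 4.76 at day 4 and 6.60 and 8.72 at day 7. The day 7 arrays were 2.12 apart, and the rise had a limma adjusted p = 0.0217, and 0.0705 with an intensity trend. Its log2 difference was 2.89, with 3.95 or 1.83 when the first or the second day 7 array was left out. Trpm1, known from melanocytes and retinal bipolar cells, rose 2.82-fold (limma adjusted p = 0.0088, and 0.0737 without day 7 replicate 2). The falls were those of Orai3, Stim1 and Itpr3, genes of store-operated calcium entry and store release, and of the stretch-activated channels Piezo1 and Piezo2, with log2 differences from -0.87 to -0.79. Each of these 5 had an adjusted p between 0.0594 and 0.156 without either day 7 array, and Itpr3 had 0.0601 with the mean of its probe sets. Of 10 sodium and potassium pump genes the regulator Fxyd1 rose (log2 difference 0.76, limma adjusted p = 0.0317), the beta subunit gene Atp1b2 fell (log2 difference -0.93, limma adjusted p = 0.0374) and 8 were not called. Without day 7 replicate 1 the adjusted p was 0.18 for Fxyd1 and 0.19 for Atp1b2, and without day 7 replicate 2 it was 0.17 and 0.175. It was 0.0892 for Fxyd1 without day 4 replicate 1 and 0.0606 for Atp1b2 without day 4 replicate 2.

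**Figure D4:**
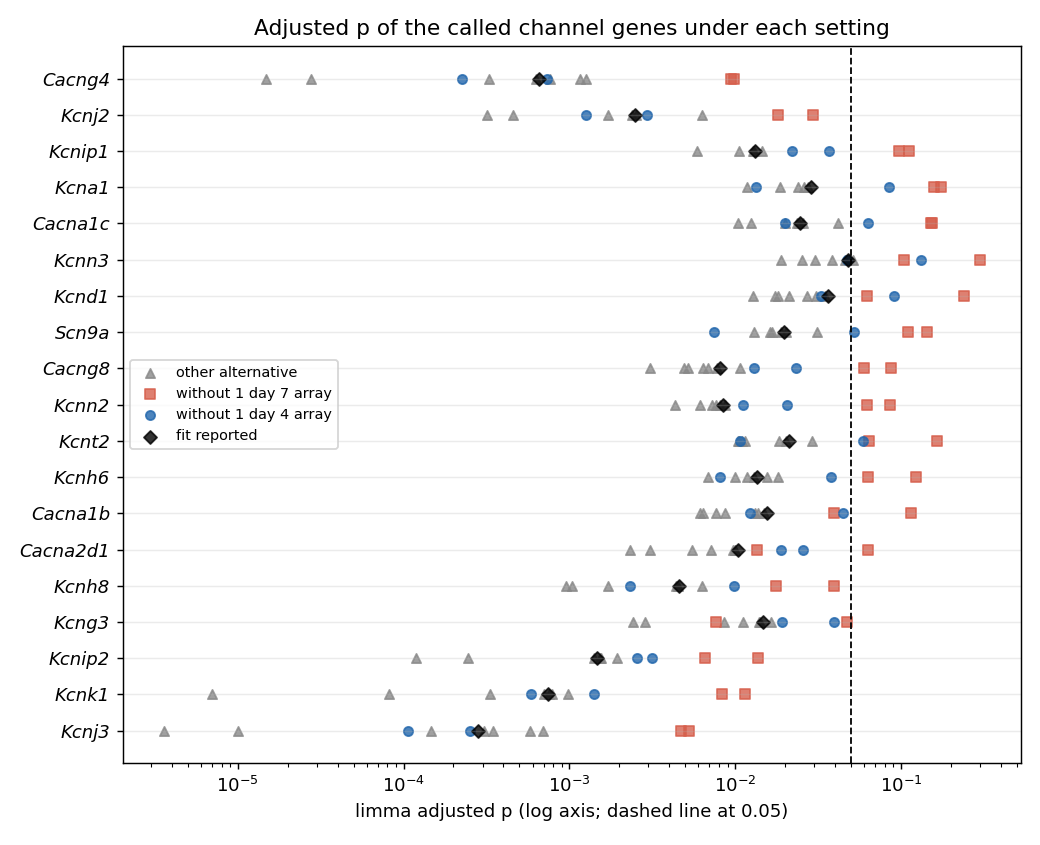
Limma adjusted p (x axis, log scale) of the 19 called channel genes (y axis) in the fit reported (black), without 1 day 4 array (blue), without 1 day 7 array (red) and under the other alternatives (grey). For 7 genes, Kcnj3, Kcnk1, Kcnip2, Kcng3, Kcnh8, Kcnj2 and Cacng4, every mark lies left of the dashed line at 0.05. The red marks lie furthest right for most genes.

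Of the 19 called members 7 kept an adjusted p under 0.05 in all alternatives in which they were tested, namely Kcnj3, Kcnk1, Kcnip2, Kcng3, Kcnh8, Kcnj2 and Cacng4. In these 7 genes the highest adjusted p was 0.0471, that of Kcng3. The other 12 lost the call in at least 1 fit, and 11 of the 19 lost it without day 7 replicate 1 or, as another set of 11, without day 7 replicate 2. Cacna1b lost it only without replicate 2 and Cacna2d1 only without replicate 1. None of the 19 (0) changed direction in any fit that tested it.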

How the data were processed

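Gene expression was measured on 4 arrays, 2 per day. Values are log2 signals as the authors deposited them. The submitters' processing notes name RMA and Partek 6.5. RMA settings and genome build are not given in the sources used here. RMA usually evens out array distributions, which would hide a shift common to most genes.

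The platform annotation gave 1 gene for 23521 of 41345 probe sets. The probe set with the highest mean was kept, giving 22180 genes. Symbols were checked against RefSeq identifiers (23328 found, 0 changed). Day 7 minus day 4 was fitted with limma 3.58.1 in R 4.3.3 (lmFit and eBayes, day as the only term, 2 residual degrees of freedom, two-sided, Benjamini-Hochberg over all genes). The prior SD was 0.16, on 5.07 degrees of freedom. The script was checked on simulated data (5 sets). The number of arrays limits the precision. 95% intervals are limma's moderated ones, not adjusted for the number of genes.

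Named were all called members, in each ion the 3 members with the highest and the 1 with the lowest mean, up to 3 uncalled members with the largest non-overlapping difference, and up to 3 called genes per direction of the other lists. Kcnn1, Kcnj5, Kcnj6, Kcnj9, Kcnj16, Kcnq3, Kcnk5, Kcnb2, Kcne3, Cacna2d3, Cacng5, Scn7a, Rest, Nalcn, Hcn3, Fgf11, Fgf14, Stim1, Piezo2, Nanog and Zfp42 were named outside this rule, after their values were seen. Members and lists were chosen with earlier results of these data known. Alternatives were a replicate block, leaving out each array, equal array medians, quantile normalization, level filters at the 25th and 50th percentile, an intensity trend with a robust prior, and the mean of probe sets. Promoters came from RefSeq. The other probe sets (1814 with several genes, 16010 with no gene here) were left out.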

Additional observations from a re-analysis of the deposited data

How the results depend on the processing

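The directions of the 19 called channel genes held in each of the 11 alternatives in which they were tested (the level filters left out 2 and 9 of them). Most calls were lost in the fits without a day 7 array, where the spread came from the 2 day 4 arrays alone. In any fit without 1 array, 1 sample stands for its day and is assumed to vary like the other day. A lost call need not mean a changed difference. That of Kcna1 was 0.74 or 0.76 without day 7 replicate 1 or 2 (0.75 in the fit reported), while that of Kcnd1 was -0.62 or -1.03 (-0.83). Leaving out 1 array gave 887 to 2500 called genes in all (2324 in the fit reported), 2 to 8 channel genes higher (6) and 6 to 16 lower (13). By ion these ranges were 1 to 6 higher (4) and 5 to 11 lower (9) for potassium, 0 to 2 lower (1) for sodium, and 1 to 2 higher (2) and 1 to 3 lower (3) for calcium. With equal array medians, which moved the median difference of all genes from -0.00 to 0.04, 10 channel genes and 4 calcium channel genes were higher. Among all genes 1718 were then higher (1364 in the fit reported). Above the median level 31 members were tested, and 1 potassium and 4 calcium channel genes were higher and 0 sodium channel genes lower. With an intensity trend 2 sodium channel genes were lower.

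The replicate numbers were not shown to pair the samples. Deviations of same-numbered arrays correlated at 0.186 over genes, and with a replicate block 2770 genes were called, with 7 channel genes higher, 14 lower and 2 sodium channel genes lower. The genes added were Kcnn1 (adjusted p = 0.0394) and Scn1a (0.0289), and none of the 19 was lost (0).

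Differences near zero changed sign. Leaving out 1 array gave differences of -0.054 to 0.037 for Cacnb2, -0.024 to 0.71 for Kcna4 and -0.085 to 0.26 for Scn3b. Cacnb2 had 0.034 with equal array medians, 0.0027 with the mean of probe sets, 0.037 without day 4 replicate 2 and 0.025 without day 7 replicate 1, Kcna4 -0.024 without day 4 replicate 2, and Scn3b -0.085 without day 4 replicate 1. The cause of these shifts was not tested. Of the other single-gene values under the alternatives, 694 kept their side of the threshold, 75 lost a call and 24 gained one. Signals close to background limit what can be seen, most of all for sodium channel genes.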
